A study of Mus musculus with 24 samples.

Results

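The 10 genes described here encode the main tubulins, the 2 cytoplasmic actins and filamin A: Tubb2a, Tubb2b, Tubb3, Tubb4b, Tubb5, Tuba1a, Tuba1b, Actb, Actg1 and Flna. They were taken by symbol from the gene table of the study, which held 48709 genes, and each matched 1 row. They were chosen by name with the measured differences between nPM and control libraries of both tissues in view, and by no threshold, so their differences between exposures are a description. The p-values printed beside them come from fits across all genes, and no statement about the choice of the genes rests on them.

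The libraries came from mouse neonates whose mothers breathed nano-sized particulate matter (nPM, particles collected beside a Los Angeles freeway and re-aerosolized) or filtered air (control). Exposure ran for 5 hours a day on 3 days a week from gestational day 2 until birth. The concentration is 300 mg/m3 in the sample labels and 300 μg/m3 in the methods of the study, and the labels give the strain C57BL/6J and an age of 3 to 5 days where the methods give C57BL/6NJ and day 5. Whole blood and dissected cerebral cortex were each sampled in 3 control females, 3 nPM females, 3 control males and 3 nPM males, with sex determined by qPCR for Sry. The labels name no transgene or deletion in any group. The study states that the 3 neonates of each sex and exposure came from different litters, and that both tissues came from the same animals. The labels do not give litters or say which blood and cortex libraries shared an animal. The p-values thus measure the spread between these libraries, which may be partly technical.

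Each cortex library held 22301409 to 33804371 counts on genes and each blood library 13595647 to 21895536. Globin genes took 66.2 to 76.8% of the counts of 11 blood libraries. In V2, a control female, they took 50.1%, and 22461 genes had a count there against 13254 to 17273 in the other 11. The study left out 1 blood sample for its count distribution, which it does not name. V2 was taken to be that sample from these values and was left out of the blood comparisons here. With V2 kept in, the genes past an unadjusted p of 0.005 were 5 in place of 17 in blood and 10 in place of 82 in female blood. Its values are given separately. Of 8 neuron markers, all 8 had counts in every cortex library, and their summed level was 4205 to 4784 CPM (counts scaled to a common library total). In blood the erythroid markers summed to 695168 to 791210 CPM in the 11 libraries and to 517538 CPM in V2.

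Tubulins form α-β dimers that polymerize into microtubules, the tracks along which migrating neurons move their nuclei and growing axons carry cargo. Tubb3 is the neuronal β-tubulin, Tubb2b and Tuba1a are the isotypes of newly born neurons, and Tubb5, Tubb4b, Tubb2a and Tuba1b are made more widely. Actb and Actg1 build the actin filaments of growth cones, cell cortex and blood cells, and Flna crosslinks actin filaments and anchors them to membrane receptors. Tubulin messages are also subject to autoregulation: when free tubulin is abundant, TTC5 recognizes the first residues of the nascent tubulin chain on the ribosome and the message is degraded. The coding starts are printed because they show which members encode the residues recognized in that way. Capitals mark the first 12 bases of the tubulins, which encode those residues, and the start codon of the other members.

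Tubb2a: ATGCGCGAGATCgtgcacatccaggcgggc
Tubb2b: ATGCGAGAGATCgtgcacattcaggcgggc
Tubb3: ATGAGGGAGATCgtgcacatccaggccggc
Tubb4b: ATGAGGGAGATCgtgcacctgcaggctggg
Tubb5: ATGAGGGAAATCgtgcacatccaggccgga
Tuba1a: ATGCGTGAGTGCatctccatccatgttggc
Tuba1b: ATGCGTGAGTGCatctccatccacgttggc
Actb: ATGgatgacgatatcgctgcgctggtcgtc
Actg1: ATGgaagaagaaatcgccgcactcgtcatt
Flna: ATGagtagctctcactcccgctgtggccag

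These starts were read from GENCODE M21 transcripts (GRCm38). For each gene the transcript with the longest coding region was taken, and the longest transcript among equals. The capitals of Tubb3 and Tubb4b were the same, as were those of Tuba1a and Tuba1b. The same annotation was used to see where reads could not be told apart. Of all stretches of 100 bases in the transcript, 73.0% in Tuba1b, 65.9% in Tuba1a, 51.1% in Actg1, 36.9% in Tubb2a, 30.6% in Tubb4b, 27.8% in Tubb2b and 1.1% in Actb also occurred in a transcript of another gene, and none did in Tubb3, Tubb5 or Flna. The values of the first 6 are uncertain, because the split of such reads between copies depends on the authors' counting. The shares depend on the length of the stretch. With 50 bases they were 83.1% in Tuba1b, 75.5% in Tuba1a, 56.7% in Actg1, 55.5% in Tubb4b and 49.6% in Tubb2a. They were 39.3% in Tubb2b, 14.2% in Actb, 0.12% in Tubb5 and 0 in Tubb3 and Flna. Tubb2a and Tubb2b shared stretches with each other, Tuba1a and Tuba1b with each other and with Tuba1c, and Actg1 mainly with the pseudogene Gm12715, whose median level over the cortex libraries was 14.7 CPM against 1107 CPM for Actg1. Tubb4b shared them mainly with Tubb4b-ps1, at a median of 2.73 CPM.

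In the files' build (mm10) Tubb2a lies on chromosome 13 at 34074301 to 34078008 and Tubb2b beside it at 34127008 to 34130354. Tuba1b lies on chromosome 15 at 98931425 to 98934565 and Tuba1a at 98949841 to 98953551, all 4 on the minus strand. Tubb3 spans 123411424 to 123422015 on the plus strand of chromosome 8 and is overlapped on that strand by Gm20388. Tubb4b spans 25222160 to 25224702 on chromosome 2 and is overlapped by Fam166a on the opposite strand. Tubb5 spans 35833921 to 35838306 on chromosome 17, Actb 142903115 to 142906754 on chromosome 5, Actg1 120345690 to 120348542 on chromosome 11 and Flna 74223461 to 74249820 on chromosome X. Actg1 is overlapped on its own strand by Gm23419 and Mir6935. The exonic length of the gene model was 1584 to 3327 bases in 9 members and 9400 bases in Flna.

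RefSeq promoters (GRCm38.p6, 250 bases before to 50 after the start) were found for 8 of the 10 members, all but Tubb2b and Actb. Actin genes are textbook targets of serum response factor (SRF), which binds the CArG box, and of its cofactors MRTF. Of the 8 promoters, only that of Actg1 held a CArG box, against 1.63% of 32851 promoters, both strands searched. It is printed with 27 bases on either side (chr11:120348549-120348612, minus strand), with the box in capitals.

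Actg1: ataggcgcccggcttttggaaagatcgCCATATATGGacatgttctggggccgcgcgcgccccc

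The box lay 90 to 81 bases before the start. TATAAA was found in the windows of Tubb2a and Tubb4b, against 13.6% of promoters on either strand, and GGGCGG in all 8, against 35.7%. A match is a description of letters and does not show binding.

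The first question was how abundant the messages were in each tissue. Levels per gene length (RPKM, counts per kilobase of gene model, scaled to the library total) were ordered over the 6 control cortex libraries. Tuba1a stood first with 2797 RPKM ± 359 (SD, n = 6), ranging from 2370 to 3400. Actb followed with 1114 ± 84.4. Tubb2a (892 ± 50.6), Tubb3 (869 ± 122) and Tubb2b (824 ± 151) overlapped, and neither neighbour stood above the other in all 6 libraries. Tubb5 had 649 ± 78.8, Actg1 434 ± 89.8, Tuba1b 339 ± 43.2 and Tubb4b 177 ± 17.5. Flna was lowest with 29.4 ± 5.85. Together the 10 genes took 1.47 to 1.97% of all counts of a cortex library.

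In the 5 control blood libraries the order was different. Actb led with 194 RPKM ± 30.6 (SD, n = 5), Actg1 had 33.0 ± 7.52 and Flna 9.29 ± 2.43. Flna overlapped with Tubb2a (8.02 ± 1.80), and Tubb4b (6.80 ± 0.780), Tubb5 (4.63 ± 1.16), Tuba1b (3.65 ± 0.621) and Tuba1a (3.44 ± 2.42) each overlapped with the next. Tubb2b (0.824 ± 0.724) and Tubb3 (0.508 ± 0.557) were lowest. The actins and Flna led in blood, where they are the cytoskeleton of platelets and leukocytes, and the α- and β-tubulins of neurons came last.

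**Figure D1:**
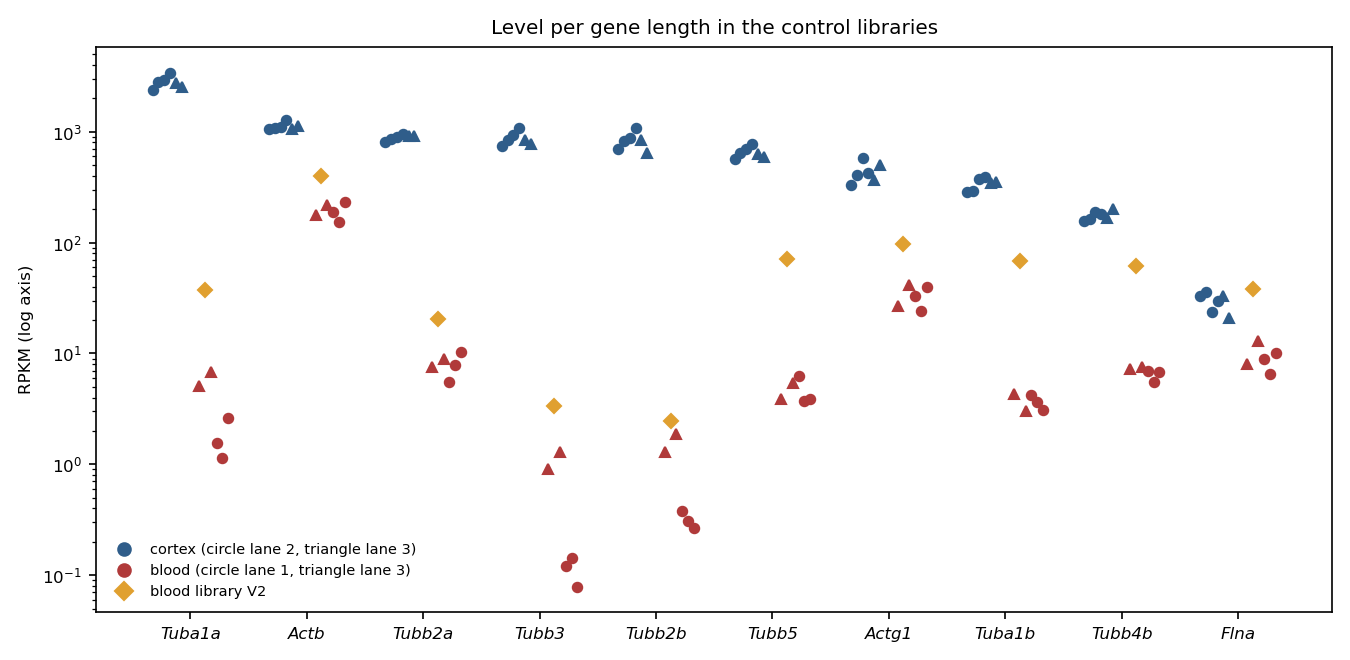
Level per gene length (RPKM, log axis) of each gene in every control library of cortex and blood, with genes ordered by their mean in cortex and V2 shown as a diamond. Cortex Tuba1a sits between 2370 and 3400, and blood Tubb3 and Tubb2b are higher in the lane 3 libraries (triangles) than in the lane 1 libraries shown as circles.

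Cortex and blood were compared by the quasi-likelihood test of edgeR (a two-sided comparison, TMM scaling, sex as covariate, 6 cortex and 5 blood control libraries), with p-values adjusted by Benjamini and Hochberg over 10275 genes. All 10 members passed an adjusted p of 0.05, where 86.2% of all genes did, and 9 passed an unadjusted p of 0.005, where 79.8% did, so passing sets them little apart. Log2 differences of cortex over blood were 6.55 (SE 0.472, adjusted p = 1.1e-09) for Tubb3, 5.79 (SE 0.412, adjusted p = 9.38e-10) for Tubb2b and 5.51 (SE 0.408, adjusted p = 1.58e-09) for Tuba1a. In the control blood libraries Tubb3 had 1.68 and 2.42 CPM in V17 and V22 of lane 3 and 0.228, 0.270 and 0.147 in V4, V6 and V8 of lane 1, and without any 1 library its tissue difference ran from 6.16 to 7.17 and that of Tubb2b from 5.47 to 6.29. The differences were 3.01 for Tubb5, 2.66 for Tubb2a, 2.37 for Tuba1b and 0.55 for Tubb4b. Actb (-1.61), Actg1 (-0.39) and Flna (-2.50) were lower in cortex after TMM scaling. All 3 were higher in cortex when each library's total over the 10275 tested genes was used without TMM (2.89, 4.09 and 1.98). The median of all genes was 0.24 with TMM and 4.69 with those totals. The direction for the actins and Flna thus depends on the scaling, and that of the 7 tubulins did not in the 9 other settings. With V2 kept in, Actg1 had an adjusted p of 0.414. In bulk samples fewer cells of a type and less RNA per cell cannot be told apart.

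The second question was whether nPM changed these genes in the cortex of both sexes together. The fit held exposure, sex and RNA integrity number (RIN) over 12 libraries. The unadjusted p of 0.005 that the study used was passed by 128 of 20857 genes (0.614%) and by no member, and an adjusted p of 0.05 by 3 genes (0.0144%) and no member. Log2 fold changes lay between -0.052 (Flna) and 0.12 (Tubb2b), 7 were positive, and their median was 0.063 against -0.0024 for all genes. The smallest adjusted p of the 10 was 0.886. For Tubb4b the difference was 0.015 (SE 0.063), and its 6 nPM libraries lay inside the range of the 6 controls. For no member did the 6 nPM libraries all lie above the 6 controls, as they did for 0.129% of genes, or all below, as for 0.0671%.

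The sexes were then fitted apart. In female cortex 9 of the 10 members were higher with nPM and Flna was lower. The median log2 fold change of the 10 was 0.19 against -0.0022 for all genes, of which 49.6% were positive. Leaving out 1 library, the median of the members ran from 0.067 (without V20) to 0.23 (without V9). The unadjusted p of 0.005 was passed by 873 of 21731 genes (4.02%), 258 (1.19%) with a higher and 615 (2.83%) with a lower value, and by 2 members, Tubb4b (higher) and Flna (lower). In fits without 1 library it was passed by 1 to 7 members. In male cortex 8 members were lower with nPM and 2, Flna and Tubb2b, were higher, with a median of -0.056 against 0.0032 for all genes. The sign of the male median rested on 1 library: without V23 it was 0.12, and Tubb3, Tubb5, Tuba1a and Actb were positive, while Tubb2a, Tubb4b, Tuba1b and Actg1 stayed negative. There 69 of 21670 genes (0.318%) passed the unadjusted p of 0.005, Actg1 and Flna among them. No gene passed an adjusted p of 0.05 with edgeR, while 978 (4.51%) passed an unadjusted p of 0.05 and DESeq2 called 3, Actg1 among them. With genes counted in any library, edgeR called 155, Actg1 and Flna among them, and with the TEC share as covariate (described below) 21, without a member. Values per library are on the TMM scale in CPM below.

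**Figure D2:**
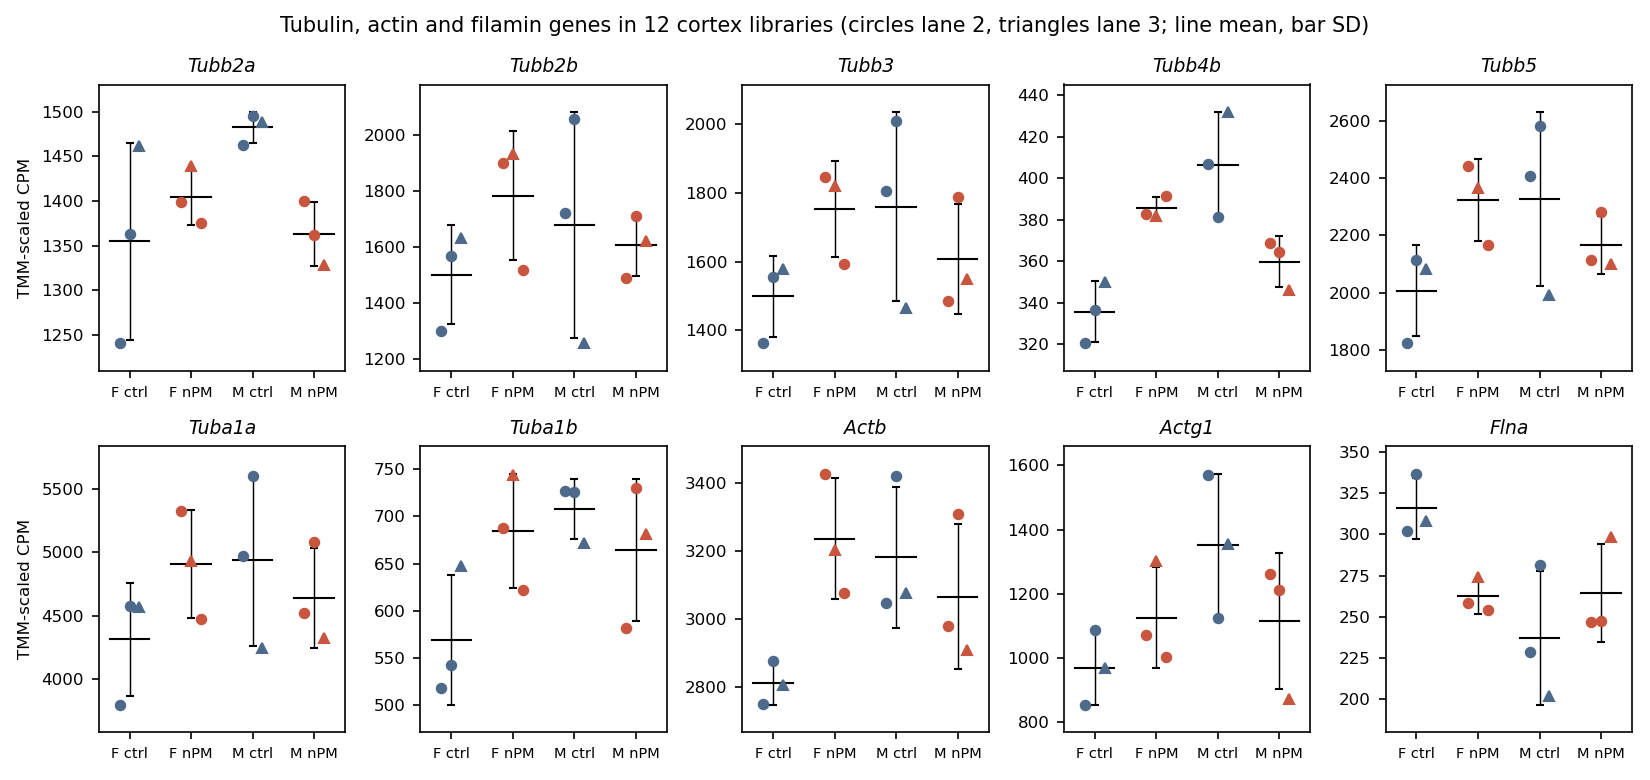
TMM-scaled CPM of each gene in the 12 cortex libraries by sex (F, M) and exposure (ctrl, nPM), with circles for lane 2, triangles for lane 3, a line at the group mean and bars of 1 SD. Axes do not start at 0; Tubb4b is higher with nPM in all 3 females and lower in all 3 males, and Flna is lower with nPM in all 3 females.

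Flna had the smallest p of the 10 in female cortex. Its scaled CPM was 302, 337 and 308 in the control females V10, V12 and V19 and 254, 259 and 274 in the nPM females V9, V11 and V20. All 3 nPM libraries lay below all 3 controls, as did 11.2% of all genes tested. The log2 fold change was -0.27 (SE 0.058, edgeR adjusted p = 0.0493), and it was the only member past the adjusted p of 0.05, which 241 of 21731 genes (1.11%) passed and 194 (0.893%) with a lower value. Other tools called more members: limma voom gave Flna and Actb, DESeq2 gave Flna, Actb, Tubb4b, Tubb5 and Tubb3, and with genes counted in any library 9 members passed. Without V9, 3 other members passed, Tubb2b (adjusted p = 0.0396), Tubb3 (0.0369) and Actb (0.037). The Flna call was lost with RLE scaling (adjusted p = 0.0558), with edgeR's own filter (0.0521) and without any 1 of the 6 libraries (0.0712 to 0.24), while the fold change stayed between -0.33 and -0.21 in those 6 fits.

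Flna stood the other way in males. Its scaled CPM was 229, 281 and 202 in the control males V14, V16 and V24 and 247, 247 and 298 in the nPM males V13, V15 and V23. The groups overlapped, because V16 exceeded 2 of the nPM libraries. The fitted log2 fold change was 0.33 (SE 0.075, unadjusted p = 0.00161, edgeR adjusted p = 0.962). It was 0.16 (adjusted p = 0.998) without RIN in the model. Within lane 2 the difference between exposures was -0.036 on the log2 scale with 2 libraries a group, and within lane 3 it was 0.56 with 1 library a group.

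Tubb4b, a β-tubulin of many dividing and ciliated cells, had 320, 336 and 350 scaled CPM in the control females V10, V12 and V19 and 391, 383 and 382 in the nPM females V9, V11 and V20. All 3 nPM females lay above the controls, as did 9.88% of all genes. The log2 fold change was 0.19 (SE 0.051, unadjusted p = 0.00322, edgeR adjusted p = 0.106). In males the controls V14, V16 and V24 had 407, 381 and 432 and the nPM libraries V13, V15 and V23 had 369, 364 and 346. All 3 nPM males lay below the controls, as did 4.83% of all genes. The log2 fold change was -0.23 (SE 0.068, unadjusted p = 0.00823, edgeR adjusted p = 0.962).

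Actg1, the cytoplasmic γ-actin, had 856, 1087 and 970 scaled CPM in the control females V10, V12 and V19 and 1003, 1072 and 1303 in the nPM females V9, V11 and V20. The groups overlapped, and the log2 fold change was 0.21 (SE 0.101, edgeR adjusted p = 0.343). Without V20 it was -0.0012. In males it had 1571, 1126 and 1357 in the controls V14, V16 and V24 and 1263, 1211 and 872 in the nPM libraries V13, V15 and V23. The male groups overlapped too. The fitted log2 fold change was -0.50 (SE 0.090, unadjusted p = 0.000315, edgeR adjusted p = 0.962), -0.27 without RIN, and -0.59 without V24, where the adjusted p was 0.0253. Without V23 it was -0.43 (adjusted p = 0.908), and no member, Actg1 and Flna included, passed the unadjusted p of 0.005 in males. Within lane 2 the difference was -0.10 and within lane 3 -0.64. DESeq2 gave Actg1 an adjusted p of 4.11e-04 in males.

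Actb, the β-actin, was higher with nPM in females without overlap, as were 9.88% of all genes. Its scaled CPM was 2751, 2875 and 2804 in the control females V10, V12 and V19 and 3077, 3427 and 3204 in the nPM females V9, V11 and V20. The log2 fold change was 0.19 (SE 0.057, edgeR adjusted p = 0.139). In males it was -0.036 (SE 0.104), with 3048, 3419 and 3077 in controls and 2980, 3308 and 2908 with nPM, and the groups overlapped.

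Of the other 6 tubulins, Tubb3 and Tubb5 separated the exposures in females. All 3 nPM females lay above the controls for them, as for 9.88% of all genes. Tubb3 had 1362, 1554 and 1580 scaled CPM in the control females V10, V12 and V19 and 1592, 1848 and 1820 in the nPM females V9, V11 and V20, and the groups did not overlap. Its log2 fold change was 0.21 (SE 0.069, edgeR adjusted p = 0.177). Tubb5 (0.19, adjusted p = 0.178) did not overlap either, while Tubb2b (0.23, adjusted p = 0.269), Tuba1a (0.15, adjusted p = 0.312) and Tuba1b (0.25, adjusted p = 0.172) did. Tubb2a had the smallest value (0.036, adjusted p = 0.842). None of these 6 passed the unadjusted p of 0.005. In males the same 6 had log2 fold changes from -0.13 (Tubb2a) to 0.085 (Tubb2b) with adjusted p-values of 0.962 to 0.984. All 3 nPM males lay below the 3 control males for Tubb2a, as for Tubb4b and for 4.83% of all genes. For no member did they all lie above, where 4.37% of all genes did.

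**Figure D3:**
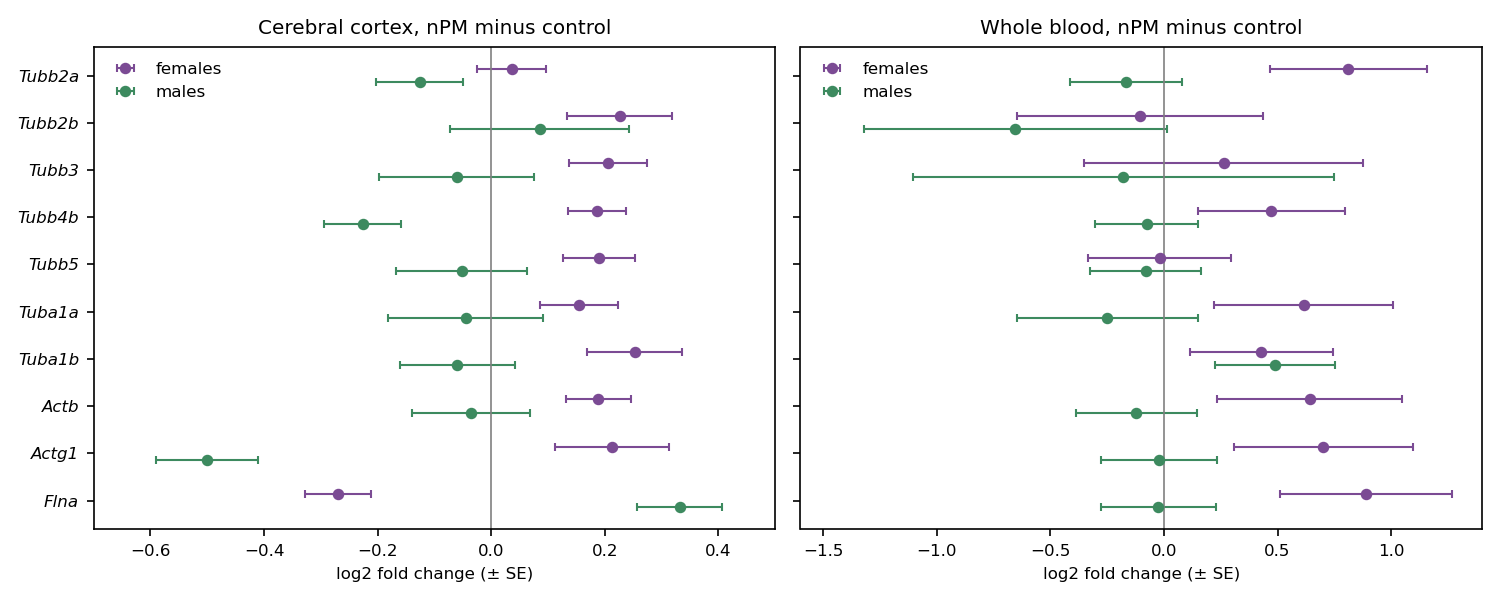
Log2 fold change of nPM over control (± SE, edgeR with RIN as covariate) of each gene in the cortex and blood of females and males. In cortex the female values run from -0.27 (Flna) to 0.25 (Tuba1b) and the male values from -0.50 (Actg1) to 0.33 (Flna); the blood axis is wider than the cortex axis.

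Whether the effect differed between the sexes was tested by the interaction term in the 12 cortex libraries. Of the 10 members, 9 had a negative term (lower in males relative to females) and Flna a positive one, with a median of -0.24 against -0.0018 for all genes. The unadjusted p of 0.005 was passed by 281 genes (1.35%) and by Tubb4b (-0.38, SE 0.088, adjusted p = 0.304) and Flna (0.49, SE 0.142, adjusted p = 0.36). No gene passed an adjusted p of 0.05 with edgeR, while 2018 passed an unadjusted p of 0.05 (9.68%) and DESeq2 called 66, Tubb4b among them (adjusted p = 0.0254). With genes counted in any library, edgeR called 379, among them Tubb4b (adjusted p = 0.0132), Actg1 (1.84e-07) and Flna (8.34e-05). Actg1 had -0.57 (SE 0.202, adjusted p = 0.411). Tubb4b kept an unadjusted p under 0.005 in all 12 fits without 1 library, and Flna in 5 of them.

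The sexes were also compared within each exposure. All 3 control males were above all 3 control females for Tubb2a, Tubb4b, Tuba1b, Actb and Actg1, where 9.76% of all genes did the same, and all were below them for Flna, as for 9.32% of all genes. For Tubb2b, Tubb3, Tubb5 and Tuba1a the control sexes overlapped. Male means of the 9 members other than Flna were above the female means in controls, by 0.13 (Tubb2a) to 0.47 (Actg1) on the log2 scale, and below them with nPM, by -0.024 (Actg1) to -0.14 (Tubb2b). Mean Flna was 316 scaled CPM in control females and 237 in control males, but 262 in nPM females and 264 in nPM males. Mean Actg1 was 971 in control females and 1351 in control males, against 1126 and 1115 with nPM. With nPM the sexes overlapped for 9 of the 10 members. Tubb4b was the exception, with 385 in females and 360 in males, where 4.75% of all genes had males below females and 4.11% males above.

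A property of the libraries moved with these differences. Among 746 other protein-coding genes shorter than 2000 bases, with a mean of at least 20 CPM, the median difference of nPM from control was 0.11 on the log2 scale in females, and 87.3% were positive. It was 0.062 among 2102 genes of 2000 to 4000 bases, 0.015 among 3201 genes of 4000 to 8000 bases and -0.052 among 1750 longer genes, where 28.7% were positive. In males the order was turned, from -0.059 under 2000 bases (21.2% positive) to 0.013 over 8000 bases (57.1% positive). On the same scale, without covariate, all 9 members under 4000 bases were higher in females and lower in males, and Flna, the only long member, was lower in females and higher in males, each with the sign of its length bin. Of those 9, all but Tubb2a exceeded the median of their bin in females. The part of gene length in the differences was not tested.

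**Figure D4:**
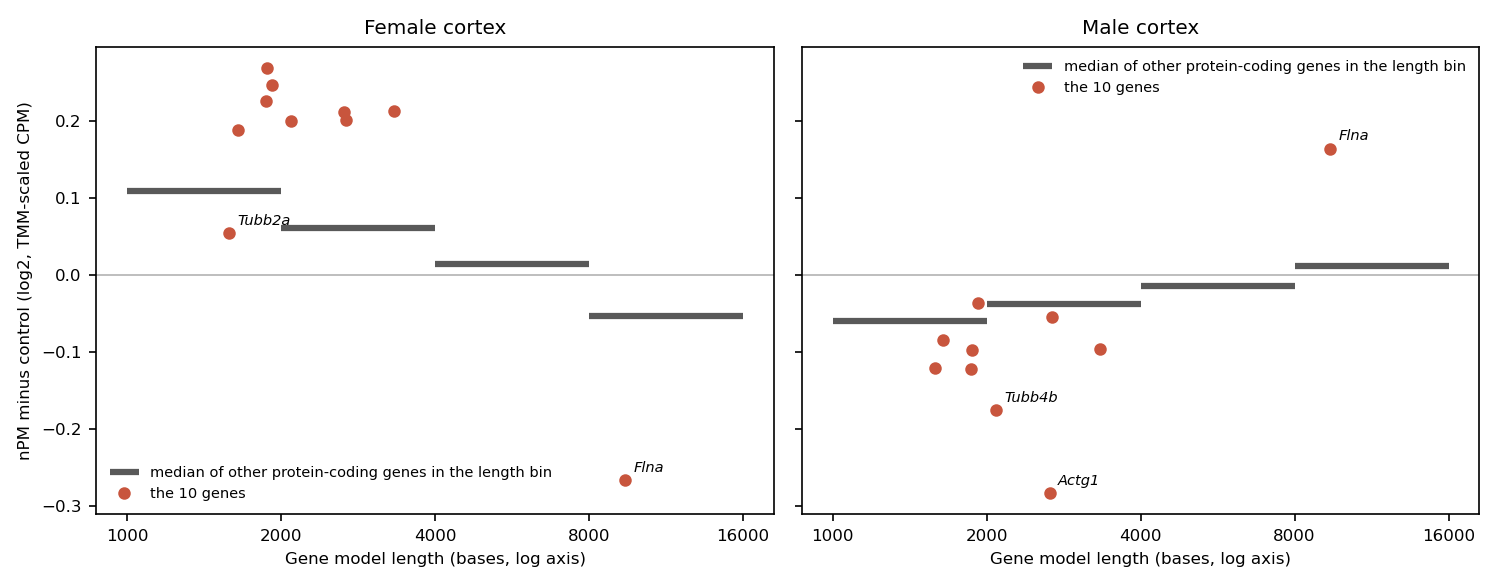
Difference of nPM from control (log2 of TMM-scaled CPM, no covariate) of the 10 genes against the length of the gene model (bases, log axis) in female and male cortex, with bars at the median of the other protein-coding genes in each length bin; the first and last bins are open and drawn only to the axis limits. In females the bars fall from 0.11 to -0.052 and in males they go from -0.059 to 0.013, and Flna, at 9400 bases, stands apart from the other members in both.

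The share of counts on TEC genes, loci whose transcripts still await experimental proof in the annotation, moved too. It was 0.406, 0.369 and 0.378% in the control females V10, V12 and V19 and 0.286, 0.273 and 0.294% in the nPM females V9, V11 and V20, without overlap. In males it was 0.338, 0.301 and 0.224% in controls and 0.296, 0.264 and 0.363% with nPM. V24, with the lowest share, had the lowest Flna (202) and the highest Tubb4b (432), and V23, with the highest share among males, had the highest Flna (298) and the lowest Tubb4b (346) of the males. With this share as an added covariate, an alternative chosen after seeing the data, no member passed an unadjusted p of 0.005 in female cortex, the median of the members turned from 0.19 to -0.50, Flna had a log2 fold change of -1.23 (adjusted p = 0.97), and the interaction terms shrank to -0.26 for Tubb4b and 0.22 for Flna. In females the share and the exposure did not overlap, so they cannot be told apart there.

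Markers of cell types were set beside the members. Of the 8 neuron markers, 3 were positive and 5 negative with nPM in females (median -0.045) and 2 and 6 in males (median -0.12), and their summed level overlapped between exposures in both sexes. The endothelial and mural list, whose cells are rich in Flna, summed to 279, 283 and 300 CPM in control females and 283, 285 and 288 with nPM, led by Rgs5, so the 2 groups overlapped. Astrocyte and microglia lists overlapped as well. Markers of striatum and of tissues around the cortex summed to 690 to 1006 CPM in control females, 826 to 893 in nPM females and 624 to 831 in nPM males. In control males they summed to 266 in V14, 717 in V16 and 745 in V24, so V14 was lowest in them, and V14 also had the highest Actg1. The endothelial and mural list was lowest in V14 too, at 217 CPM against 288 and 302 in the other control males. The part of these markers in the results was not tested.

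Pairs of members were compared over the 12 cortex libraries by their log2 levels, which share depth and scaling. Of 45 pairs, 20 passed an adjusted p of 0.05 in permutation tests of Pearson r, 18 positive and 2 negative, and fewer passed by Spearman rho. Pairs of other genes were not counted in this way, so the count does not set the members apart. Tubb3 and Tubb5 had the highest value (Pearson r = 0.98, permutation p = 1e-05, the smallest that 100000 random orders can give, adjusted p = 0.00015, Spearman rho = 0.93, permutation p = 7e-05). Without the 2 libraries farthest from the median of Tubb3, r was 0.96. Tubb5 and Tuba1a followed (r = 0.97, rho = 0.90, permutation p = 2e-05 and 0.0002), and Tubb2b went with Tubb3 (r = 0.93, rho = 0.94, permutation p = 1e-05 and 4e-05). Flna went against Tubb4b (r = -0.87, permutation p = 0.00029, adjusted p = 0.00186, rho = -0.80, permutation p = 0.00269) and against Actg1 (r = -0.70, permutation p = 0.0115, adjusted p = 0.0304). Within the 8 libraries of lane 2, r was 0.97 for Tubb3 and Tubb5 and -0.79 for Tubb4b and Flna, and lane 3 held too few libraries (4). These libraries differ in sex and exposure, which the correlations do not separate.

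The genes whose log2 level was most like the mean of the 10 members over the 12 cortex libraries, among 15506 protein-coding genes, were Gpr85 (r = 0.98), Ykt6 (0.97), Fabp5 (0.97), Uba1 (0.97) and Reep1 (0.96). They were picked for these values, so no test is given. Over the 11 blood libraries, among 9287 genes, they included Prr5l (0.90), Atp6v0b (0.89), Fen1 (0.87) and Pink1 (0.87), and none of these appeared in both tissues.

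The wider cytoskeleton was followed in 11 lists. In female cortex no listed gene outside the members passed an adjusted p of 0.05 with edgeR, the only tool run on the lists, while 1.11% of all genes did. The list of tubulin folding, with the chaperonin CCT, prefoldin and the tubulin cofactors that assemble the α-β dimer, was positive in 17 of 19 genes with a median log2 fold change of 0.13, and 3 passed the unadjusted p of 0.005 with a higher value, where 49.6% of all genes were positive and 1.19% passed. Among other protein-coding genes, 87.3% of those under 2000 bases, 75.4% of 2000 to 4000 bases, 56.2% of 4000 to 8000 bases and 28.7% of longer ones were positive. Tbca, which binds β-tubulin intermediates, had 0.25 (SE 0.054, edgeR adjusted p = 0.0524) and Pfdn5, a prefoldin subunit, 0.22 (SE 0.052, adjusted p = 0.0655). In males the same list was negative in 15 of 19 with a median of -0.062 and no gene past 0.005. Its interaction terms were negative in 17 of 19, with Pfdn5 at -0.36 (adjusted p = 0.303) and Tbca at -0.34 (adjusted p = 0.334). Of the 19 gene models, 13 were shorter than 4000 bases.

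The other tubulins had 9 of 13 genes tested, with a median of 0.059 in females, led by Tuba1c (0.25, adjusted p = 0.181), which shares sequence with Tuba1a and Tuba1b, and Tubg1, the γ-tubulin of microtubule nucleation (0.20, adjusted p = 0.368). In males their median was -0.080. In the list of tubulin autoregulation, 1 of 3 genes was positive in females. Ttc5, whose protein recognizes the residues encoded by the printed tubulin starts, had -0.028 (SE 0.059, adjusted p = 0.876) in females and 0.044 (SE 0.072, adjusted p = 0.972) in males. Tubulin modifying enzymes had a median of 0.026 in females and 0.040 in males, with Atat1, the α-tubulin acetyltransferase, at 0.21 (adjusted p = 0.155) and Sirt2, a deacetylase, at -0.20 (adjusted p = 0.164) in females. Microtubule associated proteins had 17 of 27 positive in females (median 0.030) and 10 in males (median -0.025), led in females by Map1a (-0.15, adjusted p = 0.269). Kinesin and dynein motors split 11 to 11 in females and 6 to 16 in males, led by Kif21a in females (-0.13, adjusted p = 0.197) and Dynll1 in males (-0.16, adjusted p = 0.962).

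Among actin regulators the list of monomer binding and turnover had a median of 0.044 in females and was negative in 17 of 18 genes in males (median -0.089), where 50.8% of all genes were positive. Of these 18 gene models 16 were shorter than 4000 bases, and 21.2% (under 2000 bases) and 29.8% (2000 to 4000 bases) of other protein-coding genes were positive in males. Tmsb10, a thymosin that sequesters actin monomers, had 0.28 in females (adjusted p = 0.112), -0.19 in males (adjusted p = 0.962) and an interaction term of -0.53 (adjusted p = 0.321). Dstn, which severs filaments, had 0.16 in females (adjusted p = 0.141). Nucleation and elongation factors had medians of -0.011 in females and -0.019 in males. There the formins Fmn2 (-0.22, adjusted p = 0.0779) and Diaph2 (-0.27, adjusted p = 0.118) were lower in females. Crosslinking and capping proteins had 14 of 23 positive in females (median 0.027) and 13 in males (median 0.033), led in females by Fscn1 (0.17, adjusted p = 0.137) and Capza1 (0.26, adjusted p = 0.155).

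Other actins and filamins had 4 of 7 genes tested, with 2 positive and 2 negative in each sex and medians of -0.0060 in females and -0.015 in males. Of the SRF and MRTF list, 9 of 10 genes tested were negative in females (median -0.10) and 7 of 11 in males (median -0.097). Of its 11 gene models 7 were shorter than 4000 bases. Among other protein-coding genes, 87.3% of those under 2000 bases and 75.4% of 2000 to 4000 bases were positive in females. In males these shares were 21.2% and 29.8%. Mkl2, which encodes a cofactor of SRF, had -0.22 in females (adjusted p = 0.103), and Fhl2 had -0.26 (adjusted p = 0.239).

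**Figure D5:**
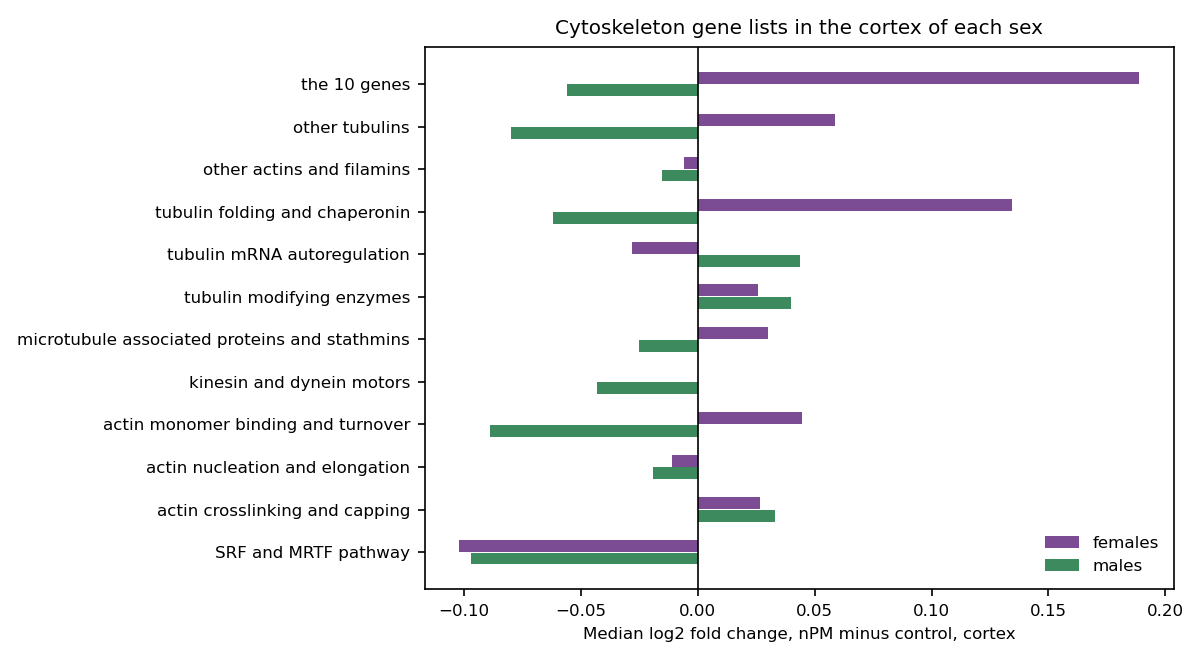
Median log2 fold change of nPM over control in female and male cortex for the 10 genes and for each list of cytoskeleton genes, all genes tested of a list included. The bars of the 10 genes and of tubulin folding have opposite signs in the sexes, at 0.19 and -0.056 and at 0.13 and -0.062, as do those of other tubulins, microtubule associated proteins, actin monomer binding and tubulin autoregulation.

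In blood no member passed either threshold with all 11 libraries. Over both sexes, with 11 libraries, 17 of 9977 genes (0.17%) passed the unadjusted p of 0.005 and no member, and no gene passed an adjusted p of 0.05 with edgeR (1 with DESeq2, and 310 or 3.11% at an unadjusted p of 0.05). Log2 fold changes of the members ran from -0.21 (Tubb2b) to 0.39 (Flna), each with an adjusted p of 1. Flna had 65.4 and 87.0 scaled CPM in the control females V4 and V17 and 98.0, 108 and 190 in the nPM females V1, V18 and V3. All 3 nPM females lay above both controls, as did 7.66% of all genes. The log2 fold change was 0.89 (SE 0.380, edgeR adjusted p = 0.599) in females and -0.025 (SE 0.254, adjusted p = 1) in males, where the groups overlapped. In male blood no member separated the exposures, where 6.16% of all genes lay above and 4.85% below. Flna thus stood higher with nPM in female blood and lower in female cortex, but the blood value did not pass either threshold with all libraries, and the 2 tissues were not tested against each other.

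V3, an nPM female, had the highest blood Actb (858), Actg1 (171), Flna (190) and Tubb2a (22.0) of the 11 libraries in scaled CPM. The platelet markers also summed highest in V3, at 422 CPM against 281 and 177 in the nPM females V1 and V18 and 168 and 152 in the control females V4 and V17. Their most abundant gene in V3 was Ppbp, at 149 CPM, and none of the 6 was at 0 in any library. In female blood all 6 platelet markers had a positive log2 fold change (median 0.86), as did Tubb1, the platelet β-tubulin (0.89, adjusted p = 0.599), while all 5 B cell markers were negative (median -0.79). All T and NK cell markers and the neutrophil markers other than Elane were negative there too, and all erythroid markers were positive. In males the platelet median was -0.23. The part of platelets in the blood values was not tested. In female blood 82 of 11013 genes (0.745%) passed the unadjusted p of 0.005 and in male blood 35 of 10602 (0.33%), in both cases without a member, and the interaction in blood called 90 genes (0.902%), again without one. An adjusted p of 0.05 was passed by 2 genes in female blood (0.0182%) and by none in male blood or for the interaction with edgeR, where 409 (3.86%) and 1064 (10.7%) passed an unadjusted p of 0.05 and DESeq2 called 1 and 4. With genes counted in any library, edgeR called 59 in female blood, 83 in male blood and 81 for the interaction, without a member. The female counts rested on V18: without this nPM female 762 genes passed the unadjusted p of 0.005 and 570 the adjusted p of 0.05, with Tubb2a (adjusted p = 0.0333) and Flna (adjusted p = 0.0435) among them. For the interaction, the smallest p among the members was that of Tubb2a (-1.16, SE 0.413, adjusted p = 0.452).

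The neuronal tubulins in blood were higher in the libraries of sequencing lane 3 than in most of lane 1. Tubb3 had 34, 39, 49 and 25 counts in the 4 blood libraries of lane 3 (V17, V18, V22 and V21). In lane 1 it had 5, 2, 14, 5, 2 and 7 counts in V4, V1, V3, V6, V8 and V7 and 62 in V5. In CPM the lane 3 median was 1.75 and the lane 1 median 0.270, which was 0.108% and 0.0166% of the mean in control cortex. Tubb2b (median 2.52 CPM in lane 3 and 0.771 in lane 1) and Tuba1a (9.53 and 4.34) went the same way. The widely made Tubb5 did not, with 14.5 and 13.7 CPM.

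With lane as the tested term, Tubb2b had a log2 difference of 1.42 of lane 3 over lane 1 (SE 0.397, adjusted p = 0.999), Tubb3 1.16 (SE 0.620) and Tuba1a 0.68 (SE 0.308). This fit was added after seeing the data, and 34 of 9977 genes (0.341%) passed the unadjusted p of 0.005 in it, 379 (3.8%) an unadjusted p of 0.05 and none an adjusted p of 0.05 with edgeR, the only tool run for it. Tubb2b passed the first of these and Tuba1a the second. Lane 3 also held 4 cortex libraries. Of 8 neuron markers, 7 had a median of 0 in lane 1 and counts in all 4 libraries of lane 3, while Gad1 had medians of 1.34 and 1.42 CPM. Syt1, a synaptic vesicle protein, had 14 to 39 counts in the lane 3 libraries and a median of 0 in lane 1, and Slc17a7 had 9 to 12 counts in lane 3 and 0 in all 7 libraries of lane 1. The medians in lane 3 were 0.119% and 0.120% of the cortex level for these 2 genes, beside 0.108% for Tubb3 and 0.159% for Tubb2b. V5, an nPM male of lane 1, had 91 counts of Syt1 and 81 of Snap25 but 0 of Slc17a7, which allows up to 0.163 CPM there by counting error alone. The cause was not tested. The highest Tubb3 of the 11 libraries, 3.36 CPM, was in V5 of lane 1, against at most 2.42 in lane 3.

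V2 stood apart in most members. In CPM it had 239 for Tubb5, where the other 11 blood libraries had 12.4 to 20.96, 128 for Tuba1b (others 5.63 to 10.5) and 128 for Tubb4b (others 11.5 to 20.4). Over the median of the others these values in plain CPM were 16.8, 16.2 and 8.54 times higher. Actb (1070 CPM, others 412 to 857) and Actg1 (259, others 64.5 to 170) differed less in plain CPM. Of the 10 members, Tubb5 and Tuba1b stood farthest above the median of the other libraries in plain CPM and Actb least. For some members the direction depends on the scaling. With all blood libraries scaled together by TMM, V2 had a size of 138105000 for 21174511 counts, and the others had sizes of 10641000 to 23471900. On that scale V2 lay below every other blood library for Tubb2a, Actb, Actg1 and Flna. It stayed above every other one for Tubb5 and Tuba1b. Neuron markers summed to 4.91 CPM in V2, a lane 1 library, against 6.09 to 7.07 CPM in lane 3, 25.9 in V5 and 0.701 to 2.38 in the other 6 libraries of lane 1. Its erythroid markers were the lowest of the blood libraries, as given above. What set V2 apart was not tested.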

How the data were processed

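RNA from 24 samples was depleted of ribosomal RNA (RiboZero Gold) and sequenced. The authors trimmed the reads with Trimmomatic, aligned them to mm10 with HISAT2 and deposited whole counts per gene from featureCounts (1.5.0-p3) with Gencode annotation. Whether counting used strand is not given in the sources used here.

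The members and gene lists were chosen with earlier results of these data known. Counts were fitted with edgeR (4.0.16, R 4.3.3), quasi-likelihood F test, TMM scaling, each fit keeping the genes that had 1 count or more in all of its libraries, with sex and RIN as covariates over both sexes, RIN within 1 sex and sex between tissues. P-values were adjusted by Benjamini and Hochberg over all genes tested. V2 was left out of blood. RPKM used the authors' gene lengths and library totals. Scaled CPM used TMM sizes. Fits were tested on simulated data. Alternatives were RLE sizes, limma (3.58.1) voom, DESeq2 (1.42.0), other count filters, other covariates and each library left out. Named list genes were the 2 with the smallest p of a list, and some others were named after their values were seen. A few genes that the rules name are not reported here. A floor of 3 counts was 0.0887 to 0.135 CPM in cortex and 0.137 to 0.221 CPM in blood, and covers counting error only.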

Additional observations from a re-analysis of the deposited data

Results flagged for a closer look

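In groups of 6 libraries of 1 tissue and exposure, 40 groups were searched for a library far from the rest by Dixon's criterion, which flags some groups by chance alone, and 11 had one. Of these, 9 were the blood controls with V2 included, searched in plain CPM. On the TMM scale over all blood libraries V2 lay below the others for Tubb2a, Actb, Actg1 and Flna and above them for Tubb5 and Tuba1b, as given above. In plain CPM V2 had 32.1 for Tubb2a (next library 16.5), 6.28 for Tubb3 (2.42), 128 for Tubb4b (15.8), 239 for Tubb5 (20.96), 61.3 for Tuba1a (11.2), 128 for Tuba1b (8.12), 1070 for Actb (618), 259 for Actg1 (109) and 358 for Flna (122).

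Actb was far from the rest in the control male V16 in cortex, at 3418 CPM against 3012 in the next library. Actb was also far in the nPM female V3 in blood, at 857 CPM against 616.

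Tubb4b in cortex was higher in all 3 nPM females than in control females and lower in all 3 nPM males than in control males. The interaction was -0.38 on the log2 scale (edgeR adjusted p = 0.304). The adjusted p was 0.0254 with DESeq2 and 0.0132 with genes counted in any library. Over all genes DESeq2 called 66 and that filter 379, where the main fit called none. No member passed the adjusted threshold with RLE sizes, limma voom, edgeR's own filter, without RIN, with lane or with the TEC share. No member passed it with any single library left out either. The Tubb4b term also shrank with the TEC share, as given above.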

How the results depend on the processing

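No paired analysis was possible because the labels give no replicate numbers and do not say which libraries share an animal or litter. Among 144 medians and counts of members under other settings, 2 medians changed sign. These were that of female cortex with the TEC share and that of male blood without RIN (from -0.10 to 0.099). In female cortex the 2 members past an unadjusted p of 0.005 became 5 with limma voom, 5 with DESeq2, 9 with genes counted in any library and 0 with the TEC share as covariate, where the median went from 0.19 to -0.50. In male cortex the 2 became 0 without RIN and 1 with the TEC share. For the interaction the 2 became 6 with genes counted in any library, 1 without RIN, 1 with lane and 0 with the TEC share. The tissue median of 2.52 was 7.03 with library totals over the tested genes only, without TMM. The TEC fits were chosen after seeing the data.

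Leaving out 1 library, the female cortex median ran from 0.067 (without V20) to 0.23 and the count from 1 to 7 (without V9), the male median from -0.16 (without V24) to 0.12 (without V23), a change of sign, and the count from 0 to 2, and the interaction median from -0.34 to -0.15 and the count from 1 to 2. The median over both sexes ran from 0.019 to 0.11 in cortex and from -0.018 (without V4, a change of sign) to 0.23 in blood, both with a count of 0. In female blood it ran from 0.33 to 0.85 (count 0 to 2), in male blood from -0.17 to 0.047 (without V22, a change of sign, count 0), for the blood interaction from -1.001 to -0.33 (count 0 to 1) and between tissues from 2.38 to 2.66 (count 9 to 10).

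Calls over all genes depended on single libraries and on the filter. The 128 genes past an unadjusted p of 0.005 in cortex became 68 without V11, 80 without V12, 82 without V15, 208 without V16, 315 without V23 and 287 without V24. The 873 in female cortex became 561 without V10, 422 without V11, 529 without V19 and 535 without V20, and the 241 at an adjusted p of 0.05 became 42, 23, 66 and 67, or 56 without V12 and 383 without V9. The 69 in male cortex became 42 without V13, 214 without V14, 43 without V15 and 120 without V24. The 281 of the cortex interaction became 185 without V10, 165 without V11, 183 without V19 and 159 without V23. In blood the 17 became 11 without V1 and 37 without V21, the 82 in females became 128 without V17, 762 without V18, 54 without V1 and 54 without V4, the 35 in males became 15 without V22, 65 without V7 and 54 without V8, and the 90 of the interaction became 181 without V17, 272 without V18, 42 without V3, 26 without V4 and 263 without V7. With genes counted in any library, an unadjusted p of 0.005 was passed by 526 genes in cortex (128 otherwise), 1642 in female cortex (873), 418 in male cortex (69), 787 for the cortex interaction (281), 106 in blood (17), 232 in female blood (82), 212 in male blood (35) and 323 for the blood interaction (90). With the TEC share the female count was 133, the male count 159 and the interaction count 135. An adjusted p of 0.05 was passed in cortex by 3 genes, 22 with DESeq2, 185 with genes counted in any library and 1 without RIN, with lane or with the TEC share. In female cortex it was passed by 445 with DESeq2, 1280 with genes counted in any library and 11 with the TEC share, and in blood by 28 with genes counted in any library. In female blood 82 became 40 with edgeR's own filter and 39 without RIN, and the 2 at an adjusted p of 0.05 became 0 with that filter or with V2, and 1 with limma voom or without RIN. In male blood 35 became 22 with DESeq2, 23 with edgeR's own filter and 55 without RIN, and in blood 17 became 9 with lane. Between tissues 8197 became 14569 with genes counted in any library and 12403 with edgeR's own filter, and the 8861 at an adjusted p of 0.05 became 16131 and 14305. The causes were not tested. With 3 libraries a group the exact permutation test cannot go below 0.1.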
